A study of Homo sapiens with 12 samples.

Results

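PNKP1i was added to cells that also received TH10785, and the 3 libraries given both compounds were compared with the 3 libraries given TH10785 alone. These are 6 of the 12 libraries of the series, and they were chosen by their labelled treatment. All libraries came from U2OS, an established human osteosarcoma line grown in DMEM with fetal bovine serum, and RNA was taken after 24 h of treatment. TH10785 was given at 10 µM in both groups, and PNKP1i at 10 µM was the only labelled difference between them. The other 6 libraries, 3 given the solvent DMSO and 3 given 10 µM PNKP1i without TH10785, supplied the response to PNKP1i alone. TH10785 is thus present on both sides of the main contrast. Whether replicates were separate cultures is not stated, so p-values here reflect only the spread between libraries, and that spread may be technical. RNA was measured in bulk, so fewer cells of a kind and less RNA per cell cannot be told apart.

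OGG1 is the DNA glycosylase that removes oxidised guanine from DNA, and TH10785 is a small molecule that activates it. It opens base excision repair, in which the damaged base is cut out, the strand is broken, the ends are trimmed, and a polymerase and a ligase close the gap. PNKP1i is the second compound, and its structure is not given in the labels.

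Adding PNKP1i on top of TH10785 lowered the mRNAs of cholesterol and fatty acid synthesis, replication-dependent histones, glycolysis and the mitochondrial genome, and raised ATF4-linked stress genes, many aminoacyl-tRNA synthetases and TXNIP. Of 17290 genes tested, 7317 (42.3%) were called at an adjusted p under 0.05. Rises numbered 3918 (22.7%), of which 1521 were at least 2-fold, and falls numbered 3399 (19.7%), of which 769 were at least 2-fold. The 3 and 3 library values did not overlap for 9032 genes (52.2%). Among called genes this held for 3684 of the rises and 3284 of the falls, so it adds little to a call. The median log2 difference over all tested genes was 0.02. Counts in the gene lists below are to be read against the shares of 22.7% rises and 19.7% falls. In what follows a log2 change is both compounds minus TH10785 alone with its standard error, a level is in CPM (counts relative to the TMM-scaled library total), library values are in the order of replicates 1, 2 and 3, and "rose" and "fell" mark genes past the edgeR threshold.

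The 6 libraries held 16225339 to 20596877 counts and differed in the levels of genes by GC content. The 2369 genes with a GC content under 40% had a median log2 level, relative to the TH10785 mean, of 0.79, 0.59 and 0.92 in the libraries with both compounds, and of 0.31, 0.21 and -0.51 with TH10785 alone. For the 2603 genes over 60% GC the medians were -0.39, -0.35 and -0.37 with both compounds, and -0.14, -0.10 and 0.24 with TH10785 alone. TH10785 replicate 3 thus lay on the opposite side of its group from replicates 1 and 2 at both ends of the scale, but the groups did not overlap in either class. Called rises had a median GC content of 41.5%, called falls one of 57.0%, and all tested genes one of 49.3%. With offsets for GC content and transcript length in each library, 5851 genes (33.8%) were called, 3331 rises (19.3%) and 2520 falls (14.6%), and 3979 of the 7317 kept their call in the same direction. These offsets also remove any true change that follows GC content, and the part of the trend in the calls that is technical was not tested. Values with offsets are given below for the main genes and lists that they move.

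**Figure D1:**
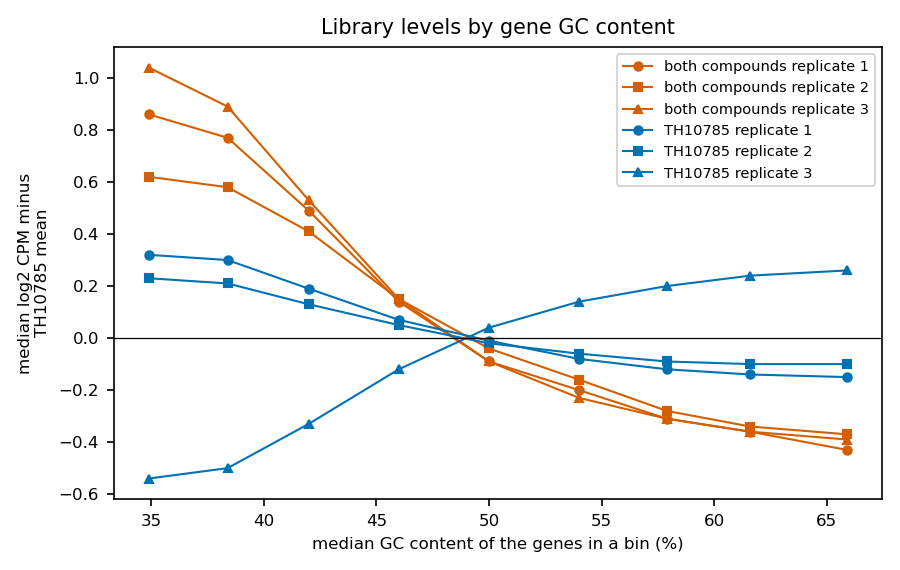
Median log2 level relative to the mean of the TH10785 libraries (y axis) against gene GC content in percent (x axis, 9 bins), 1 line for each of the 6 libraries. The lines of the libraries with both compounds run from 0.62 to 1.04 in the lowest bin down to -0.43 to -0.37 in the highest, while TH10785 replicate 3 runs the other way, from -0.54 to 0.26.

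Cells build cholesterol from acetyl-CoA through the mevalonate pathway, and the transcription factor SREBP2, made by SREBF2, switches on most of its enzymes when membrane sterol is low. SCAP carries SREBP2 to its activating proteases and INSIG proteins hold it back, while the SREBF1 product drives fatty acid synthesis and LXR drives export.

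Of 24 cholesterol synthesis genes, 15 fell and 2 rose (GGPS1 and LBR), with a median log2 change of -1.0. LSS, lanosterol synthase, which folds squalene epoxide into the first sterol (chr21:46188141-46228824, GRCh38), measured 385, 395 and 478 CPM with TH10785 alone and 96.2, 138 and 139 CPM with both compounds. The groups did not overlap, and the change was -1.75 ± 0.15 (adjusted p = 2.2e-06). With DMSO the level was 178, 193 and 182 CPM and with PNKP1i alone 190.2, 152 and 170.5 CPM. The libraries with TH10785 alone were thus the high ones among the 4 groups. Those with both compounds lay under every library of the other groups. FDFT1, squalene synthase, the first enzyme committed to sterols, measured 573, 602 and 734 CPM and 199, 252 and 212 CPM, a change of -1.52 ± 0.14 (adjusted p = 2.64e-06). Its DMSO libraries held 212, 214 and 173 CPM, overlapping the range with both compounds. MVD, mevalonate diphosphate decarboxylase, went from 254, 277 and 378 CPM to 82.3, 94.2 and 93.8 CPM, and ACAT2, a thiolase that makes acetoacetyl-CoA, from 149.9, 157 and 167 CPM to 36.2, 55.1 and 45.2 CPM. In both genes each library with both compounds lay under every TH10785 library.

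Falls lay at early and late steps of the pathway and were uneven. Among early steps, HMGCS1, which makes HMG-CoA, changed by -0.85 ± 0.17 (adjusted p = 0.00142), and by -1.33 with offsets. IDI1 and CYP51A1 were called only with offsets, at -0.59 and -0.57 against -0.18 and -0.16 without. The mevalonate kinase MVK changed by -1.36 and the prenyl synthase FDPS by -1.59. Among late steps, EBP changed by -1.69, DHCR7 by -1.61, NSDHL by -1.14, HSD17B7 by -1.25 and ERG28, a scaffold of the demethylation steps, by -1.41. SQLE, squalene epoxidase, changed by -0.55, and MSMO1 by -0.58 (-1.16 with offsets). The rises of GGPS1 (0.72, adjusted p = 0.0336) and LBR (0.49, adjusted p = 0.0365) did not hold: neither was called with offsets, without TH10785 replicate 3, without replicate 1 or without replicate 3 of both compounds, and LBR also not without replicate 2. PMVK, SC5D, TM7SF2 and FAXDC2 did not pass the test. With offsets TM7SF2, which reduces a sterol double bond, was called at 0.59 against 0.12 without, while SC5D went from 0.26 to -0.28 and PMVK from -0.33 to 0.07, neither of them called. In all 1 gene rose and 18 fell with offsets, with a median of -0.99.

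Medians over the 24 genes, taken as log2 level relative to the TH10785 mean, were -1.25, -0.79 and -1.13 in the libraries with both compounds and -0.05, -0.05 and 0.10 with TH10785 alone. They were -1.15, -1.15 and -1.25 with DMSO and -1.13, -1.28 and -1.27 with PNKP1i alone. The libraries with both compounds thus lay within or above the range of the untreated and PNKP1i libraries, and the TH10785 libraries lay apart from the other 9. Single genes varied around these medians. Mean levels with DMSO and with both compounds were 53.3 and 95.0 CPM for HMGCS1 and 105 and 168 CPM for SQLE. They were 35.7 and 68.6 CPM for MSMO1, but 184 and 124 CPM for LSS. The 4 groups' levels are given side by side, since comparisons through DMSO share samples.

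**Figure D2:**
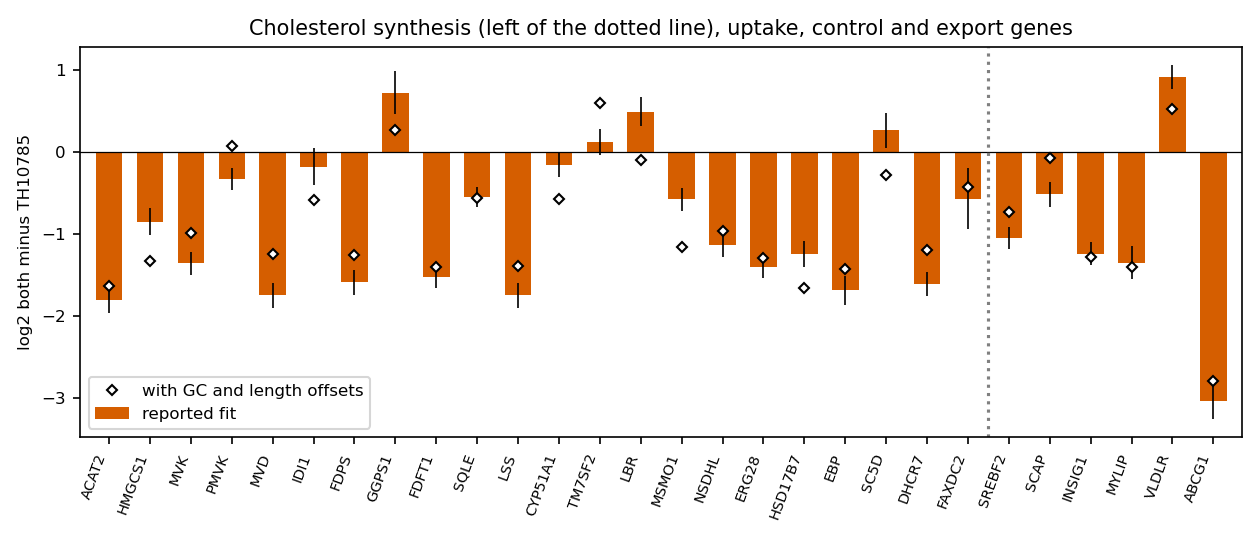
Log2 change, both compounds minus TH10785 alone (y axis), for cholesterol synthesis genes in pathway order and, right of the dotted line, uptake, control and export genes (x axis). Bars show the change with its standard error and diamonds the value with GC and length offsets. LSS, MVD and ACAT2 fall by 1.75 to 1.80, and ABCG1 is the lowest at -3.04.

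Of 14 genes of cholesterol uptake and SREBP2 control, 6 fell and 2 rose, with a median of -0.11. SREBF2 itself fell from 609, 631 and 800.4 CPM to 306, 338 and 339.6 CPM, a change of -1.05 ± 0.13 (adjusted p = 4.66e-05), and the 3 lower values were close together. Its DMSO libraries held 411, 461 and 451 CPM, above every library with both compounds. INSIG1, which retains SREBP2 in the endoplasmic reticulum and is itself a target of it, fell from 63.6, 73.4 and 65.5 CPM to 23, 29.8 and 33.1 CPM. MYLIP, a ubiquitin ligase and LXR target, changed by -1.35 ± 0.20, and SCARB1, an HDL receptor, by -0.62 (-0.36 with offsets, and not called with offsets and without TH10785 replicate 3 together). SCAP changed by -0.52, but by -0.08 with offsets, where it was not called. The rises were VLDLR (0.91, or 0.52 with offsets) and the SREBP protease gene MBTPS2 (0.67, adjusted p = 0.0246). The MBTPS2 call was lost with offsets (0.00) and without TH10785 replicate 2, TH10785 replicate 3, or replicate 1 or 3 of both compounds. INSIG2 stood at 0.50 ± 0.23 (adjusted p = 0.0851), and at -0.16 with offsets.

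Fatty acid synthesis fell with the sterol genes. Of 23 genes, 13 fell and 2 rose (ELOVL6 and GPAM), with a median of -0.59. The rises numbered 1 without replicate 1 or replicate 3 of both compounds and 4 without TH10785 replicate 1. SCD, the stearoyl-CoA desaturase, measured 994, 1015 and 1081 CPM with TH10785 alone, 369, 432 and 420.4 CPM with both compounds and 433, 417 and 473 CPM with DMSO. FASN, fatty acid synthase, went from 1747, 1929 and 2323 CPM to 822, 777 and 825 CPM, by -1.31 ± 0.15. SREBF1 went from 279.5, 295 and 374 CPM to 99.1, 98.7 and 108 CPM, by -1.63 ± 0.13 (adjusted p = 2.2e-06), and FADS2, the delta-6 desaturase, changed by -1.68. None of these 4 genes had overlap between the groups with TH10785 alone and with both compounds. With DMSO FASN was at 723, 848 and 964 CPM, overlapping the range with both compounds. SREBF1 was at 200, 236 and 225.5 CPM with DMSO, above every library with both compounds. Mean levels of FADS2 were 400 CPM with DMSO and 234 CPM with both compounds.

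Among 10 genes of LXR, its targets, a corepressor and cholesterol export, 3 rose and 3 fell, with a median of -0.40. With offsets 2 rose and 2 fell, and the median was -0.01. The rises were ABCA5, a lipid transporter (2.07, or 1.35 with offsets), the nuclear receptor corepressor NCOR1 (0.68) and SMPDL3A, a phosphodiesterase (1.0), which was not called with offsets (0.60, adjusted p = 0.141). ABCG1, which exports cholesterol to HDL, had the largest fall after ALPP and CLIC3 (mean log2 CPM of 1 or more, groups without overlap). It measured 12.4, 12.1 and 13 CPM with TH10785 alone and 1.74, 1.36 and 1.45 CPM with both compounds, a change of -3.04 ± 0.22 (adjusted p = 2.14e-06). Its level was 16.8, 18.8 and 18.1 CPM with DMSO and 5.24, 9.31 and 6.32 CPM with PNKP1i alone. Every library with both compounds was under every library of the other 3 groups. The change with PNKP1i alone was -1.36 ± 0.19 (adjusted p = 0.0043), and the response on top of TH10785 minus the response alone was -1.68 ± 0.29 (interaction, adjusted p = 0.00448). LPCAT3, a phospholipid-remodelling LXR target, changed by -1.16 ± 0.15, while ABCA1, the other main exporter, did not pass the test at -0.60 ± 0.62 (adjusted p = 0.459).

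ATF4 is the main transcription factor that the integrated stress response engages. Its translation rises when amino acids run short or proteins misfold in the endoplasmic reticulum, and it switches on genes for amino acid synthesis, transport and tRNA charging through a short promoter element, the amino acid response element.

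Of 27 ATF4-linked transcription factors and effectors, 18 rose and none fell, with a median log2 change of 0.77, against 22.7% rises and a median of 0.02 over all genes. With offsets 22 rose and the median was 0.96. CEBPG, the bZIP partner of ATF4, measured 39.2, 35.5 and 27.4 CPM with TH10785 alone and 105, 86.1 and 90.2 CPM with both compounds, a change of 1.46 ± 0.13 (adjusted p = 3.37e-06). All 3 values with both compounds were above the TH10785 range. GDF15, a secreted stress cytokine, went from 16.2, 15.3 and 19.8 CPM to 88.7, 43.7 and 49.8 CPM, and TRIB3, a pseudokinase that dampens the response, from 62.7, 63.1 and 88.7 CPM to 496, 200.1 and 199 CPM. In both genes replicate 1 with both compounds was the highest by far, and replicates 2 and 3 lay together. DDIT3 (CHOP) rose by 1.68 ± 0.26, the mTORC1 inhibitor DDIT4 by 1.19 ± 0.11 and INHBE, an activin subunit, by 1.2 ± 0.16. ATF4 mRNA itself did not pass the test at 0.30 ± 0.15 (adjusted p = 0.105). With offsets it rose by 0.65 (adjusted p = 0.000256).

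Amino acid and one-carbon synthesis held 10 rises and 4 falls among 25 genes, with a median of 0.27. With offsets there were 16 rises and 3 falls, with a median of 0.46. The falls numbered 2 without TH10785 replicate 3 and 2 without replicate 3 of both compounds. ASNS, asparagine synthetase, measured 5.76, 4.4 and 5.55 CPM and 26.9, 19.8 and 21.4 CPM, a 4.34-fold rise (2.12 ± 0.21, adjusted p = 4.24e-06). ALDH1L2, a mitochondrial folate enzyme, went from 6.62, 6.57 and 3.61 CPM to 42.1, 24.8 and 37 CPM, by 2.63 ± 0.24. PSAT1, the aminotransferase of serine synthesis, went from 118, 119 and 102 CPM to 270.1, 276 and 238 CPM. None of the 3 genes had overlapping groups. MTHFD2 rose by 1.08 (0.63 with offsets), and BCAT1, which starts branched-chain amino acid breakdown, rose by 0.97 ± 0.12 but was not called with offsets (0.26, adjusted p = 0.106).

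Among 25 amino acid transporters 12 rose and 4 fell, with a median of 0.31. SLC7A11, the cystine importer, measured 22.4, 21 and 12.4 CPM with TH10785 alone and 118, 67.2 and 93 CPM with both compounds, a change of 2.32 ± 0.22 (adjusted p = 3.55e-06). The lowest library with both compounds was still above every TH10785 library. SLC38A1, a glutamine transporter, rose by 1.58 ± 0.22, SLC6A15, a branched-chain amino acid and proline transporter, by 2.01 ± 0.31 and SLC7A3, an arginine and lysine transporter, by 1.33 ± 0.25. Of 20 cytosolic aminoacyl-tRNA synthetases, which load tRNAs with amino acids, 11 rose and 3 fell, with a median of 0.46 (1 fall with offsets). EPRS1 rose by 1.52 ± 0.20, NARS1 by 1.31 ± 0.17, WARS1 by 1.04 ± 0.16 and LARS1 by 1.06 ± 0.16 (0.64 with offsets), while FARSA, QARS1 and VARS1 fell.

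The promoters of these genes were searched for the amino acid response element, written TGATGCAA and sought on both strands of RefSeq windows from 250 bases before to 50 bases after each start. It occurred in 304 of 35116 windows (0.866%), or in 1.08% of genes. The ATF4, amino acid synthesis, transporter and synthetase lists held 97 genes. Of the 75 with a window, 16 had a match (21.3%), in 18 of 124 windows (14.5%). These lists cover processes that ATF4 is known to switch on through this element, so the higher share says nothing about these data. Of the 16 genes with a match 9 rose and none fell, with a median of 0.52. Of the 59 without one 29 rose and 8 fell, with a median of 0.49, so the medians of those with and without the element were close. A match describes the letters and is not shown to be a bound site. The stretches below show every match lying wholly before the start of a gene of these lists that rose, with the element in capitals, read 5′ to 3′ along the gene's strand from the GRCh38.p14 table. The start is that of the RefSeq window, and 4 of the 5 stretches, all but that of CEBPG, overlap annotated exons.
BCAT1, chr12:24949131-24949160, minus strand: tgtcttcctgcTGATGCAAtccgctaggtc
CEBPG, chr19:33374060-33374089, plus strand: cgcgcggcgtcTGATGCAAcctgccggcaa
CHAC1, chr15:40953251-40953280, plus strand: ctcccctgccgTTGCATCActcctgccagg
IARS1, chr9:92293698-92293721, minus strand: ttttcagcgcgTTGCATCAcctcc
SLC1A5, chr19:46784893-46784922, minus strand: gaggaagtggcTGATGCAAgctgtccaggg
In CHAC1 and IARS1 the element lies on the opposite strand and is printed as its reverse complement.

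CHAC1, which degrades glutathione, measured 29.1, 31.1 and 41.8 CPM with TH10785 alone and 79.9, 74.6 and 74.4 CPM with both compounds, a change of 1.17 ± 0.16 (adjusted p = 7.65e-05). IARS1, the isoleucine synthetase, went from 259.9, 252 and 204 CPM to 479, 369.9 and 389 CPM, by 0.79 ± 0.13. SLC1A5, a glutamine transporter, went from 341, 359 and 482 CPM to 691, 552 and 568 CPM, by 0.62 ± 0.16, and by 1.08 with offsets. None of the 3 genes had overlapping groups.

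The mitochondrial genome encodes 13 proteins of the respiratory chain, and the nucleus encodes the remaining subunits and the machinery that copies and reads that genome. All 13 mitochondrial mRNAs fell, with a median log2 change of -0.87, and 12 fell with offsets. MT-CYB, cytochrome b of complex III, measured 1875, 1916 and 2158 CPM with TH10785 alone and 573, 868 and 1000.0 CPM with both compounds, a change of -1.29 ± 0.19 (adjusted p = 0.000182). MT-CO1, a core subunit of complex IV, went from 11033, 11079 and 12277 CPM to 3382, 5121 and 6092 CPM, MT-CO2 changed by -1.17 ± 0.19 and MT-ATP6, of the ATP synthase, by -1.2 ± 0.20. Replicate 1 with both compounds was the lowest for MT-CYB and MT-CO1, and the groups did not overlap. Medians over the 13 were -1.12, -0.92 and -0.65 with both compounds.

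Of 76 nuclear-encoded respiratory chain genes 30 fell and 1 rose, with a median of -0.34. That count moved with single libraries: 18 fell and 2 rose without replicate 1 of both compounds, 49 fell without its replicate 2, and 19 fell and none rose without its replicate 3. SDHA, of complex II, went from 199, 202 and 243 CPM to 104, 131 and 123 CPM, by -0.85 ± 0.12. NDUFB4 changed by -0.65 ± 0.12 (-1.08 with offsets), ATP5F1A by -0.60 ± 0.12 and UQCRC1 by -0.76 ± 0.15 (-0.32 with offsets). The machinery of mitochondrial gene expression moved the other way, with 14 rises and 3 falls among 32 genes and a median of 0.45. With offsets 9 rose and the median was 0.12, and 9 rose without replicate 3 of both compounds. LRPPRC, which stabilises mitochondrial mRNAs, rose by 1.25 ± 0.22 and TFB2M, a mitochondrial transcription factor, by 0.97 ± 0.18 (0.60 with offsets).

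Glycolysis fell in 21 of 28 genes and rose in 4 (2 without TH10785 replicate 3), with a median of -0.61. With offsets 16 fell and the median was -0.31. ALDOC, an aldolase, went from 12, 13.2 and 17.8 CPM to 2.52, 2.47 and 3.21 CPM, by -2.38 ± 0.24, and PGAM1, phosphoglycerate mutase, changed by -1.13 ± 0.15. HK2, hexokinase 2, was among the rises, at 30.5, 27.5 and 28.4 CPM with TH10785 alone and 109.6, 57.8 and 64.5 CPM with both compounds (1.42 ± 0.19), as was the lactate carrier SLC16A1 (1.03 ± 0.13). Replicate 1 with both compounds was the highest for HK2, and the groups did not overlap.

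TXNIP and ARRDC4 are related arrestin-fold proteins that restrain glucose uptake, and MondoA and ChREBP switch both on when sugar phosphates accumulate. TXNIP (chr1:145992435-145996600) measured 2.64, 1.97 and 2.5 CPM with TH10785 alone and 55.5, 24.8 and 23 CPM with both compounds, a 14.6-fold rise (3.86 ± 0.36, adjusted p = 3.55e-06). ARRDC4 went from 1.84, 0.88 and 0.61 CPM to 14.3, 4.94 and 5.52 CPM, by 2.91 ± 0.46 (adjusted p = 0.000243). For both, replicate 1 with both compounds stood above replicates 2 and 3, and every TH10785 library was far under the 3. TXNIP was at 4.19, 5.01 and 3.21 CPM with DMSO and 6.09, 11 and 5.23 CPM with PNKP1i alone. The carbohydrate response element bound by those factors, written CACGNG, 5 bases and CNCGNG, occurred in 0.501% of windows and was in the TXNIP window, from 88 to 72 bases before the first transcribed base. It was not in the ARRDC4 windows. Among the amino acid, ATF4 and cholesterol synthesis genes searched, it was also in windows of JDP2 (-0.23), SC5D (0.26) and SLC1A5 (0.62). Of these only SLC1A5 rose. The stretch around the TXNIP match is shown with the match in capitals, as the letters in the promoter of the gene with the larger rise of the pair.
TXNIP, chr1:145996621-145996697, minus strand: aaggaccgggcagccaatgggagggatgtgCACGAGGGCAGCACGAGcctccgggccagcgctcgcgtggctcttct
The sterol response element, sought as TCACNCCAC on both strands, occurred in 1.13% of windows and in none of the 26 windows of the 19 cholesterol synthesis genes that had one.

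Replication-dependent histone genes are read in S phase to package new DNA, and their mRNAs normally lack a poly(A) tail. Of 30 tested (55 listed) 23 fell and none rose, with a median log2 change of -1.48, or -1.34 with offsets. H2BC12 measured 473, 512 and 568 CPM with TH10785 alone and 123, 196 and 158 CPM with both compounds, a change of -1.70 ± 0.15 (adjusted p = 2.6e-06). H2BC21 changed by -1.74 ± 0.15, H2BC11 by -2.26 ± 0.23 and H4C9 by -1.64 ± 0.16, with no overlap between groups in any of the 4. Histone genes are near-identical copies, so reads shared between them make the single-gene values uncertain. Medians over the 30 were -2.0, -1.10 and -1.15 with both compounds, so replicate 1 lay lowest.

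Among 57 G1/S and replication genes 27 fell and 7 rose, with a median of -0.30. The rises were 4 without TH10785 replicate 3, 3 without replicate 3 of both compounds and 2 with offsets. TK1, thymidine kinase, went from 606, 624 and 910.2 CPM to 221, 391 and 342 CPM, by -1.17 ± 0.19 (-0.69 with offsets), and MCM2, of the replicative helicase, changed by -0.75 ± 0.13 (-0.37). POLD1, a catalytic subunit of polymerase delta, changed by -0.78 ± 0.14 (-0.30). Among 44 G2/M and mitosis genes 17 fell and 10 rose, with a median of -0.01. The rises were 3 without TH10785 replicate 3, 16 without TH10785 replicate 1, 2 without replicate 3 of both compounds and 1 with offsets, where 20 fell. The falls held CCNB1, cyclin B1 (-0.81 ± 0.14), the kinase PLK1 (-0.98 ± 0.15, or -0.63 with offsets), the mitotic transcription factor FOXM1 (-0.78 ± 0.13, or -0.46) and ESPL1, separase (-0.90 ± 0.13).

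OGG1 (chr3:9749944-9788219) was at 45.7, 48.6 and 61.5 CPM with TH10785 alone and 33.1, 40.9 and 36.7 CPM with both compounds, a change of -0.49 ± 0.13 (adjusted p = 0.00682). It was at 54.8, 54.2 and 46.6 CPM with DMSO and 55.9, 54.6 and 58.2 CPM with PNKP1i alone, so the libraries with both compounds held the 3 lowest values of the 12. With offsets and without TH10785 replicate 3 together the OGG1 change was -0.24 and not called (adjusted p = 0.12). TH10785 acts on the protein, so the mRNA level does not check the label.

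Among 36 base excision and single-strand break repair genes 10 fell and 4 rose, with a median of -0.10. Besides OGG1, LIG1, the replicative ligase, changed by -0.75 ± 0.13 (-0.42 with offsets) and NUDT18, a hydrolase of oxidised nucleotides, by -1.2 ± 0.23 (-0.72). The scaffold XRCC1 changed by -0.36 ± 0.11 (adjusted p = 0.0138) but by 0.03 with offsets, where it was not called. Among 43 double-strand break repair and checkpoint genes 22 rose and 5 fell, with a median of 0.49. The rises were 13 without replicate 3 of both compounds and 12 with offsets (median 0.23), and the falls were 3 without TH10785 replicate 3 or without replicate 1 of both compounds. The list had a median GC content of 42.8%, under the 49.3% of all genes. ATR, the kinase of stalled forks, measured 3.68, 3.31 and 1.78 CPM and 10.7, 6.88 and 13.8 CPM, a change of 1.85 ± 0.28, while the nuclease MRE11 rose by 1.45 ± 0.23 (0.84 with offsets) and the helicase WRN by 1.51 ± 0.27 (0.93). RBBP8, which starts end resection, rose by 1.3 ± 0.24 (0.83). Of 33 genes of the p53 list 9 rose and 9 fell, with a median of 0.10 (-0.08 with offsets). Each share was 27.3%, against 22.7% rises and 19.7% falls over all genes. GADD45A rose by 0.82 ± 0.13 and BTG2 changed by -0.91 ± 0.12.

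NF-κB and inflammatory genes held 14 rises and 3 falls among 25 tested (31 listed), with a median of 0.59. With offsets there were 17 rises and 1 fall. CXCL8, the neutrophil chemokine interleukin-8, measured 2.02, 0.311 and 0.555 CPM with TH10785 alone and 15.8, 5.96 and 9.09 CPM with both compounds, a change of 3.45 ± 0.48 (adjusted p = 0.0001). TH10785 replicate 1 was the highest of its group and still under every library with both compounds. IL1A, interleukin-1 alpha, was at 0.123, 0 and 0.0555 CPM against 4.55, 0.921 and 1.31 CPM, so its TH10785 level was near 0. It passed the count filter only through the libraries with both compounds. It could thus enter the list only as a rise, and its call adds no support to the count. CCL2, the monocyte chemokine, moved the other way, from 5.39, 7.25 and 3.55 CPM to 0.968, 1.55 and 1.54 CPM, by -1.99 ± 0.27. SOD2 rose by 1.27 ± 0.19 (0.81 with offsets).

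Immediate early and ERK feedback genes held 12 rises and 6 falls among 33 (3 falls without TH10785 replicate 3), with a median of 0.38. With offsets there were 18 rises and 3 falls, with a median of 0.54. MYC went from 120.1, 133 and 147 CPM to 397, 213 and 221 CPM, by 1.05 ± 0.20, and DUSP5, a phosphatase of nuclear ERK, from 12.8, 10.7 and 13.8 CPM to 63.5, 24.2 and 29.6 CPM, by 1.66 ± 0.27. Replicate 1 with both compounds was the highest in both genes, and without it the MYC change was 0.70. ETV5 rose by 1.25 ± 0.18 and the receptor-signalling inhibitor SPRY2 by 0.95 ± 0.18. Ribosome biogenesis and RNA polymerase I genes, many of them known MYC targets, held 26 rises and 4 falls among 48, with a median of 0.44. The falls were 1 without TH10785 replicate 3, and 2 with offsets or without DMSO replicate 2, PNKP1i replicate 1 or 3, or replicate 1 or 3 of both compounds. The helicases DDX21 and DDX18 rose by 1.49 ± 0.23 and 1.25 ± 0.20 (0.78 for DDX18 with offsets), and the nucleolar GTPase GNL3 by 1.28 ± 0.17. Cytosolic ribosomal protein genes held 4 rises and 2 falls among 79, with a median of -0.12. Without replicate 2 of both compounds 1 rose and 24 fell, without TH10785 replicate 1 there were 6 falls, and without TH10785 replicate 3 or replicate 1 or 3 of both compounds there were none. Without DMSO replicate 2, TH10785 replicate 2 or any 1 PNKP1i library there was 1.

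NRF2 is the transcription factor of the antioxidant response. Of 36 tested genes of NRF2, its regulators and its targets, 13 rose and 9 fell, with a median of 0.19. TXNRD1, thioredoxin reductase, went from 316, 326 and 214 CPM to 874, 809.7 and 754 CPM, by 1.51 ± 0.14, and GCLC, of glutathione synthesis, rose by 1.33 ± 0.16. GCLM rose by 0.91 ± 0.13 but was not called with offsets (0.23). Among the 9 falls were the pentose phosphate genes PGD, TALDO1 and TKT, and also ABCC1, EPHX1, GSTM3, KEAP1 and PRDX1.

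**Figure D3:**
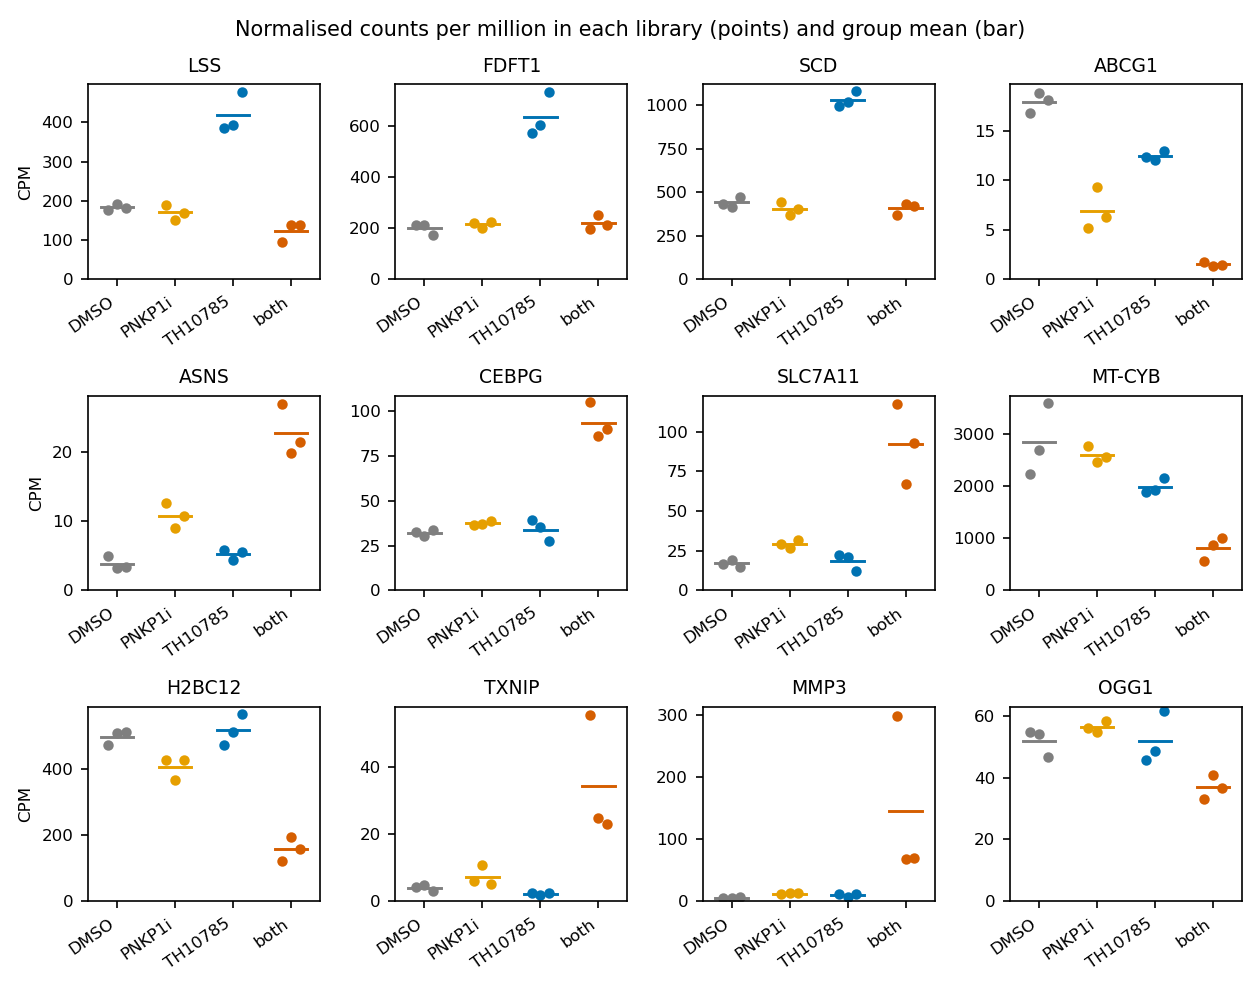
Levels in CPM (y axes) of 12 genes in the 12 libraries, by group (x axes), 1 point per library with a bar at the group mean. LSS, FDFT1 and SCD are highest with TH10785 alone, ABCG1, MT-CYB and H2BC12 are lowest with both compounds, and ASNS, CEBPG, SLC7A11, TXNIP and MMP3 are highest with both compounds.

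Single changes were ranked among called genes whose mean log2 CPM reached 1 and whose groups did not overlap. The 10 largest rises were OLAH, OSCAR, TXNIP, MMP3, LCN2, PTX3, SPX, SCG5, ARRDC4 and ZFPM2-AS1. OLAH, a thioesterase that frees medium-chain fatty acids, measured 1.53, 1.4 and 0.721 CPM with TH10785 alone and 65.2, 20.1 and 20.8 CPM with both compounds, a change of 4.86 ± 0.50 (adjusted p = 7.18e-06). MMP3, stromelysin, went from 12.3, 7.97 and 11.4 CPM to 299, 68.1 and 70.4 CPM, by 3.8 ± 0.44. OSCAR, an immunoglobulin-like receptor known from osteoclasts, went from 2.94, 3 and 3.33 CPM to 76.4, 27.7 and 35.4 CPM, by 3.91 ± 0.31. In all 3 genes replicate 1 with both compounds was the highest by far. That no group overlapped follows from the ranking. LCN2, the iron-scavenging lipocalin, rose by 3.72 ± 0.35 and the pentraxin PTX3 by 3.09 ± 0.30.

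The 10 largest falls were ALPP, CLIC3, ABCG1, NPPB, LINC02474, KRT14, CXCL14, ANXA8L1, LGI3 and EDN2. ALPP, placental alkaline phosphatase, went from 28.1, 34.4 and 44.3 CPM to 1.16, 5.72 and 4.75 CPM, by -3.19 ± 0.36 (adjusted p = 1.72e-05). CXCL14, a chemokine, went from 33.6, 31.4 and 41.3 CPM to 0.823, 8.58 and 6.97 CPM, by -2.70 ± 0.42. In both, replicate 1 with both compounds was the lowest by far. NPPB, natriuretic peptide B, changed by -2.80 ± 0.34 and the endothelin EDN2 by -2.57 ± 0.45. ALPP and ANXA8L1 have near-identical paralogs, so reads may be divided between copies.

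Cytoskeleton and matrix genes fell more often than they rose. Of 36 genes of the YAP and SRF list, targets and regulators together, 19 fell and 5 rose, with a median of -0.38. The rises were ANKRD1, CCN2, TEAD1, WWTR1 and YAP1, and the falls held the regulators SRF, MRTFA, TEAD2, TEAD3 and TEAD4. The rises numbered 3 without replicate 1 and 2 without replicate 3 of both compounds. With offsets 13 fell and 3 rose, with a median of -0.19. ACTB, beta-actin, went from 8630.4, 9475 and 12342 CPM to 3659.8, 4574 and 4255 CPM, by -1.29 ± 0.17, so actin mRNA was not constant in these libraries. MYL9 and CNN1, contractile proteins, changed by -1.70 ± 0.21 and -1.52 ± 0.19. Of 35 collagen and matrix genes 15 fell and 5 rose, with a median of -0.39. With offsets 12 fell and 6 rose, with a median of -0.14. COL1A1 went from 1294, 1369.8 and 1535 CPM to 573, 636 and 793 CPM (-1.07 ± 0.15, or -0.68 with offsets), and TNC, tenascin C, rose by 1.32 ± 0.21.

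Other lists were more mixed. Endoplasmic reticulum folding and degradation held 14 rises and 5 falls among 31 (8 and 8 with offsets), with CALR at -1.0 and MANF at -0.86. Heat shock proteins held 12 rises and 9 falls among 28 (4 falls without replicate 3 of both compounds, and 13 rises and 3 falls with offsets). Lysosome and autophagy genes held 13 and 8 among 49 (6 rises without replicate 1 of both compounds). These lysosome shares, 26.5% and 16.3%, were also near those of all genes. Proteasome subunits held 5 rises and 16 falls among 38 (9 falls without replicate 3 of both compounds, and 2 rises with offsets). SR and hnRNP splicing factors held 11 and 7 among 36, with 3 falls without replicate 1 and 4 without replicate 3 of both compounds. With offsets 2 rose and 15 fell, and their median of 0.09 became -0.11. Interferon genes held 7 rises and 5 falls among 29 (24.1% and 17.2%, near the 22.7% and 19.7% of all genes). The rises were 4 without DMSO replicate 2, PNKP1i replicate 1 or 3, or TH10785 replicate 3, 3 without replicate 1 of both compounds and 2 without its replicate 3, and the falls were 3 without either of the last 2. With offsets 5 rose and 3 fell. In the BCL2 family 6 rose and 7 fell of 18, with a median of -0.22. With offsets 7 rose and 2 fell, with a median of 0.03. The rises were BCL2, BCL2A1, BCL2L2, MCL1, HRK and PMAIP1, and the falls BAD, BAX, BCL2L11, BCL2L12, BIK, BMF and BOK. BCL2A1 changed by 4.42 ± 0.75 from a mean of 0.0562 CPM with TH10785 alone. It too passed the count filter only through the libraries with both compounds, so only a rise was open to it. The survival protein MCL1 changed by 0.87 ± 0.16. The pro-death BH3-only members HRK and PMAIP1 changed by 1.07 ± 0.18 and 1.11 ± 0.19 (0.51 for PMAIP1 with offsets).

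**Figure D4:**
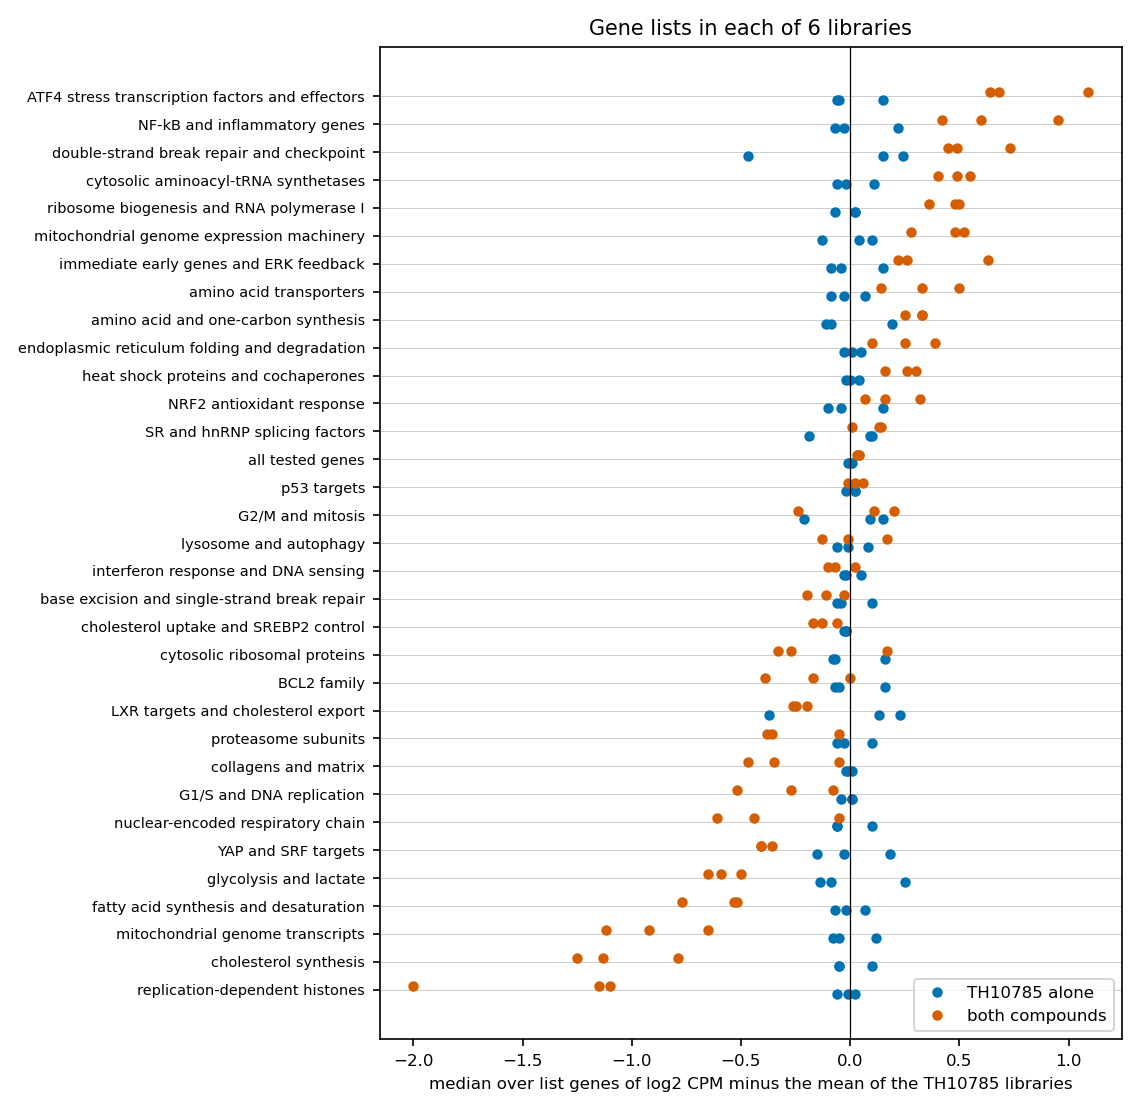
Median log2 level over each gene list relative to the mean of the TH10785 libraries (x axis), for 32 lists and all tested genes (y axis), 1 point for each of the 6 libraries. Histones (-2.0 to -1.10 with both compounds), cholesterol synthesis and mitochondrial genome transcripts lie farthest left, and ATF4-linked genes (0.64 to 1.09) lie at the right.

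The response to PNKP1i differed with TH10785 present for many genes. With PNKP1i alone against DMSO 34 genes (0.197%) were called, 30 of which rose. DESeq2 called 116 in the same comparison. The test of the difference between the 2 responses, which share no library, called 5289 genes (30.6%), 2855 higher (16.5%) and 2434 lower (14.1%) with TH10785 present, and 3136 (18.1%) with offsets. Of the 5289 genes, 2079 kept their call in the same direction with offsets. The test called 3489 genes without DMSO replicate 3 and 3518 without PNKP1i replicate 1. Of the 30 genes that rose with PNKP1i alone, 22 also rose on top of TH10785, 1 fell (RN7SL2) and 7 were not called (ASS1, CD1D, FTL, NQO1, PHGDH, TRIM16 and TRIM16L). Their median log2 change was 0.90 alone and 0.74 on top. The 4 that fell with PNKP1i alone, among them ABCG1, CYP24A1 and MANF, all fell again, with medians of -0.76 and -1.25. Both sets were picked by passing the test with PNKP1i alone, a choice that favours large changes alone. The medians alone and on top therefore cannot be compared for size, and a missing call on top does not show a lost response.

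Amino acid genes were among those that rose in both settings. ASNS rose by 1.49 ± 0.21 with PNKP1i alone (adjusted p = 0.0043) and by 2.12 on top, and the 2 responses did not differ past the threshold (0.63 ± 0.29, adjusted p = 0.11). CHAC1 rose by 1.24 ± 0.16 alone and by 1.17 on top. CEBPG differed: its change was 0.21 ± 0.13 alone (adjusted p = 0.539), and the interaction was 1.25 ± 0.19 (adjusted p = 0.00245). PHGDH, the first enzyme of serine synthesis, rose by 0.89 ± 0.15 alone (adjusted p = 0.0128) and stood at 0.13 ± 0.15 on top (adjusted p = 0.503; 0.36 and called with offsets). NQO1, a classical NRF2 target, was called alone at 0.91 ± 0.15 and stood at 0.19 ± 0.15 on top (adjusted p = 0.322). Among the 27 ATF4-linked genes the median was 0.41 alone with 4 rises. Among the 36 genes of the NRF2 list it was 0.49 alone with 5 rises. DESeq2 called 7 and 15 genes of these lists with PNKP1i alone. For the NRF2 list the interaction was called higher for 7 and lower for 14.

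Sterol genes differed between the 2 responses. The interaction was called lower for 12 of the 24 cholesterol synthesis genes and higher for 1. For LSS it was -1.64 ± 0.20 (adjusted p = 0.000655), with a change of -0.11 ± 0.14 from PNKP1i alone (adjusted p = 0.786). TXNIP, LCN2, OLAH and PUS7L, a member of the pseudouridine synthase family, had the 4 highest interactions, and KRT14, ALPP, CXCL14 and CLIC3 the 4 lowest, at the same minimum level.

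**Figure D5:**
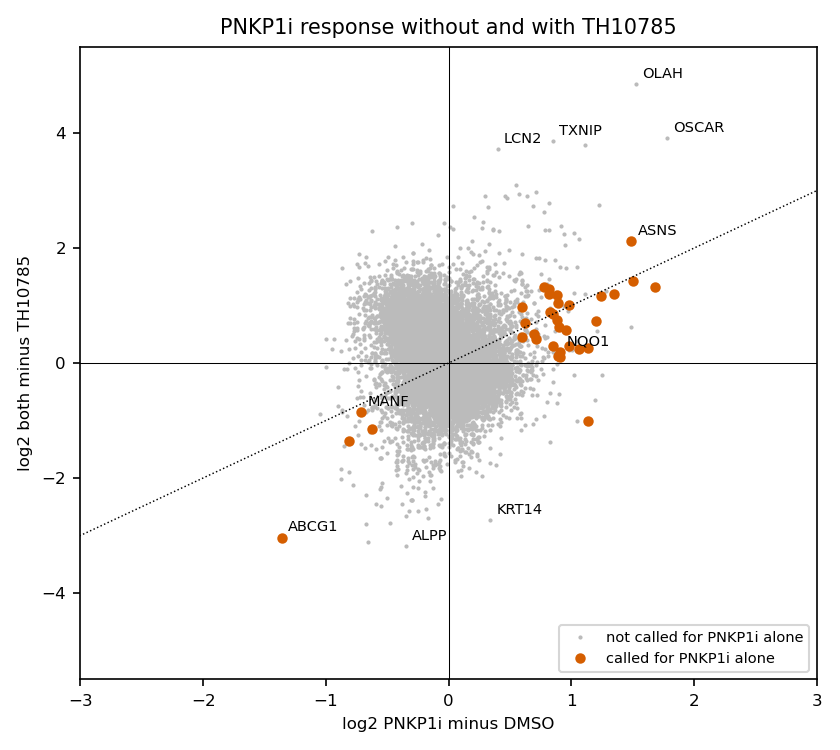
Log2 change with PNKP1i on top of TH10785 (y axis) against log2 change with PNKP1i alone over DMSO (x axis), 1 point for each of 13095 genes at or above a mean log2 CPM of 1, with the 34 genes called for PNKP1i alone in orange and a dotted line of equality. ASNS and ABCG1 are called on both axes.

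Markers of the line and of other cell types were read in the same libraries, in the same CPM. Of 12 osteosarcoma and mesenchymal markers 7 passed the filter and 2 (IBSP and TWIST1) were at 0 in all 6 libraries. Their summed level was 3893.8 to 4548.5 CPM with TH10785 alone and 2111.2 to 2600.2 CPM with both compounds, most of it COL1A1, SPARC and VIM, each of them lower with both compounds without overlap. RUNX2 was also lower without overlap, at 24.0 to 27.2 CPM and 14.9 to 18.6 CPM. SPP1, osteopontin, was higher without overlap, at 1.39 to 2.64 CPM and 6.25 to 14.2 CPM. The ranges of ALPL and CDH11 overlapped. Of 5 epithelial markers 4 passed, with sums of 2404.3 to 3677.3 CPM and 1196.6 to 1480.4 CPM, nearly all of it KRT8 and KRT18. EPCAM was at 1.22 to 3.36 CPM and 3.29 to 4.03 CPM, and CDH1 at 1.94 to 2.59 CPM and 2.42 to 2.71 CPM, so the ranges of these 2 markers met. Leukocyte markers summed to at most 0.724 CPM, with 3 of 5 at 0. Endothelial markers summed to 4.66 to 7.99 CPM with TH10785 alone and 1.79 to 3.3 CPM with both compounds. Erythroid markers were at or near 0. The part that the mesenchymal and epithelial sums play in the gene lists they move with was not tested.

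The labels and notes do not say whether counting used strand, and the library kit named in the labels does not mark strand. Reads from an overlapping gene on the opposite strand may therefore be included for ACAT2, ALDH1L2, ALDOC, ALPP, ATP5F1A, ATR, BCAT1, CALR, CDH1, CXCL14, CYP51A1, DDIT3, DDIT4, ERG28, FADS2, FARSA, FAXDC2, FDFT1, FDPS, FOXM1, GCLC, GGPS1, GNL3, HK2, HMGCS1, IDI1, KRT18, KRT8, LARS1, LGI3, LIG1, LPCAT3, LSS, MCM2, MMP3, MRE11, MRTFA, MTHFD2, MVK, NCOR1, NQO1, OGG1, PLK1, PTX3, PUS7L, SCG5, SLC16A1, SLC1A5, SLC7A11, SOD2, SPARC, SPX, SREBF1, SREBF2, TNC, TRIM16, VIM, VLDLR, WARS1, WRN and XRCC1, whose exons overlap an annotated exon on the other strand.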

How the data were processed

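Total RNA of 12 U2OS libraries was extracted with TRIzol, made into libraries (NEBNext Ultra RNA kit) and read as 150-bp pairs, per the labels' protocols. The authors deposited raw counts for 58735 Ensembl genes, which were tested as counts. The submitters' processing notes name GRCh38 and hg38 as builds, and as tools DESeq2 1.30.1, HTSeq 0.6.1 and HISAT2 2.0.5, while the annotation and strand setting are not given in the sources used here. All gene identifiers matched GENCODE release 29, which gave positions, GC content and transcript length. Depth ran from 16225339 to 21546369 counts per library, and the biological coefficient of variation was 15.4%. Promoter sequences came from a RefSeq table of GRCh38.p14.

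Genes passing filterByExpr with the 4 groups (at least 10 counts, total of at least 15) were fitted in edgeR 4.0.16 (R 4.3.3) with TMM scaling and 1 mean per group over the 12 libraries. Robust quasi-likelihood F tests, two-sided, compared both compounds with TH10785, PNKP1i with DMSO, and the difference of those responses, with Benjamini-Hochberg adjustment over 17290 genes and a threshold of 0.05. The code was tested on simulated data. The fit was repeated with upper quartile or RLE scaling, limma-voom (limma 3.58.1), DESeq2 1.42.0, no filter, a stricter filter (a total of 120 counts, and 1 CPM in 3 libraries), a test against a fold of 1.2, the 6 libraries alone, the replicate number as a block, each library left out, and offsets from splines (5 degrees of freedom) of GC content and length, fitted per library over the 17282 genes with both values.

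The comparison, the gene lists and the tests were chosen with earlier results of these data known. The text names OGG1, the 10 largest rises and falls that did not overlap (mean log2 CPM of at least 1), up to 4 members of each list by smallest p, the 4 highest and 4 lowest interactions and the sterol genes. DDIT3, TRIB3, ATF4, BCAT1, CHAC1, IARS1, SLC1A5, ABCA1, SMPDL3A, PHGDH, NQO1, XRCC1, the genes called with PNKP1i alone and members listed beside a count fall outside that rule and were chosen after their values were seen. A few results within the naming rule are not reported here.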

Additional observations from a re-analysis of the deposited data

Results flagged for a closer look

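The response to PNKP1i differed by a test between cells with and without TH10785 for 5289 of 17290 genes, by edgeR's quasi-likelihood test of the difference with Benjamini-Hochberg adjustment. In the values that follow, a positive difference is a higher log2 response with TH10785 present. The 4 highest differences were OLAH at 3.33 ± 0.90 (SE), LCN2 at 3.31 ± 0.49, TXNIP at 3.02 ± 0.49 and PUS7L at 2.92 ± 0.57. None of these genes passed the test with PNKP1i alone, where their changes were 1.53, 0.40, 0.85 and -0.62. The 4 lowest were KRT14 at -3.08 ± 0.54, ALPP at -2.84 ± 0.48, CXCL14 at -2.53 ± 0.56 and CLIC3 at -2.46 ± 0.55, with changes of 0.34, -0.35, -0.17 and -0.66 from PNKP1i alone. PUS7L stood at 1.92 with GC and length offsets. OLAH was not called with offsets (3.09, adjusted p = 0.0881) or with the replicate block added to them, with limma-voom or without a low-count filter, nor without DMSO replicate 3 (2.07) or TH10785 replicate 3 (3.05), and CXCL14 not without a filter or without TH10785 replicate 3.

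OGG1 mRNA also differed. Its difference was -0.61 ± 0.18 (adjusted p = 0.0213), with a change of 0.12 from PNKP1i alone, and it was not called without DMSO replicate 3 (-0.54) or PNKP1i replicate 3. Nor was it called against a fold of 1.2, with offsets and the replicate block (-0.47) or with offsets without TH10785 replicate 3 (-0.39).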

How the results depend on the processing

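The count of 7317 genes changed on top of TH10785 stayed within 1.5 times under every alternative but offsets without TH10785 replicate 3, which gave 4214. It was 7361 with RLE scaling, 7298 with upper quartile scaling, 7537 with DESeq2, 7556 with limma-voom, 7018 without a filter, 7204 with the stricter filter, 5070 from the 6 libraries alone, 5093 against a fold of 1.2, and 5646 to 7584 with single libraries left out. For the difference between responses the count of 5289 genes was 3136 with offsets and 2410 with offsets and the replicate block. It was 1777 with offsets without TH10785 replicate 3, and 3489 to 6159 with single libraries left out. Of the 5289, only 2079 (39.3%) kept their call in the same direction with offsets. With offsets and the block 1679 did, and with offsets without TH10785 replicate 3 1309 did. Same-numbered libraries of the 2 groups compared did not deviate together (r = 0.0605, -0.1603 and -0.2548). Whether they share a culture or batch is not stated, and these correlations cannot settle it. The replicate block gave 6745 and 4497 calls and cost no named gene its call. Of 160 named genes called, 146 were called in every one of the 25 settings that tested them. IL1A and BCL2A1, among these, were tested in 24. With offsets 10 lost the call, and 13 did with offsets without TH10785 replicate 3. Some genes named by the rule turned direction and were called in the reported fit or in the setting that turned them. They were RPL7 (-0.01) and SC5D (-0.40, called as a fall) with offsets without TH10785 replicate 3, SEC61G (-0.06 with offsets, -0.04 with the block added), MBTPS2 (0.00 and -0.01) and LBR (-0.10 and -0.09, or -0.19 without TH10785 replicate 3). The called fall of XRCC1 also turned with offsets, and PMVK and INSIG2, called neither with offsets nor in the reported fit, changed sign. PMVK was called in 4 of the 25 settings. IDI1, called in 3 settings, ran from -0.72 to 0.03. The cause of these shifts was not tested. Depth limits genes such as IL1A and ABCG1, with few counts in a group.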
